A study of Arabidopsis thaliana with 4 samples.

Results

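The 4 genes described here encode the enzymes that turn an indole precursor into camalexin in Arabidopsis thaliana. They were found by locus identifier among the gene spots of each array, as AT2G30750 (CYP71A12), AT2G30770 (CYP71A13), AT4G30530 (GGP1) and AT3G26830 (PAD3), and stand for 4 of 29030 loci on the array and for 6 of 43603 probes. All 4 loci were found, and all 6 probes were bright enough to be tested. The study asked how wild-type seedlings respond to volatile compounds of a microbe, and compared seedlings of the Col-0 accession in 2 states. Exposed seedlings shared the air of an upright plate with Pseudomonas syringae DC3000, a bacterial leaf pathogen that grew in the lower part of the plate. Control seedlings grew on plates without the bacterium. Exposure lasted 12 hours after 8 days on agar, according to the design text, while the labels of the samples say 12 days, and which holds is not settled here. Each of the 4 arrays held exposed RNA in the red dye Cy5 and control RNA in the green dye Cy3, so every log2 ratio below is exposed over control within 1 array. No dyes were swapped, and a preference of a probe for 1 dye cannot be told apart from exposure.

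Camalexin is the main indole phytoalexin of Arabidopsis, an antimicrobial compound that is made after infection and is stored in little amount beforehand. Its synthesis starts from tryptophan, which CYP79B2 and CYP79B3 turn into indole-3-acetaldoxime, a branch point shared with indole glucosinolates. CYP71A13 and its close copy CYP71A12 dehydrate the oxime to indole-3-acetonitrile. The nitrile is joined to glutathione, the gamma-glutamyl peptidase GGP1 trims the conjugate, and the cytochrome P450 PAD3 (CYP71B15) closes the ring to camalexin. Transcripts of CYP71A13 and PAD3 are widely used as markers of an induced camalexin response.

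The arrays did not behave alike, and this touches each result. Of gene spots, 77.7% to 78.9% were well above background in the exposed channel on arrays 1 to 3, and 99.6% on array 4. In the control channel these shares were 75.1% to 75.4% and 97.2%. Outlier spots numbered 13 to 19 on arrays 1 to 3 and 142 on array 4. Across all gene spots the median exposed signal was 336 to 373 scanner units on arrays 1 to 3 and 1286 units on array 4, and the median control signal was 292 to 362.5 units on arrays 1 to 3 and 575.5 units on array 4. Across genes, Pearson's r between the log2 ratios was 0.648 to 0.779 for pairs among arrays 1 to 3, and 0.220 to 0.288 for pairs that include array 4. Genes are not independent replicates, and these r values are a description. Nothing in the labels says that the 4 arrays hold RNA of separate plant batches, so p-values measure the spread between arrays, which may be technical. On 50 probes spotted 5 times each, the SD of the mean log2 ratio over arrays 1 to 3 had a median of 0.0469. The median expected from the spread of repeat spots within arrays 1 to 3 was 0.0506. Arrays 1 to 3 therefore differed there by no more than spot noise, but they carry separate labels and were kept as separate samples. Counted as 1 sample beside array 4, they left 0 genes called in limma, with 1317 at an unadjusted p below 0.05. Arrays 1 and 2 shared slide 1 and arrays 3 and 4 shared slide 2, per the file headers.

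None of the 4 camalexin genes passed the test over all genes, but 3 of them, PAD3, CYP71A13 and CYP71A12, were lower in exposed seedlings on arrays 1, 2 and 3 and higher on array 4 after loess. With median centring PAD3 on array 4 was at -0.014, so its sign there is not settled. On arrays 1 to 3 the mean log2 ratio was -0.66 for PAD3, -0.68 for CYP71A13 and -0.33 for CYP71A12, which is 1.58-fold, 1.61-fold and 1.25-fold lower. The second probe of CYP71A13 was lower in exposed seedlings on all 4 arrays and passed the test among probes. GGP1 had the mean nearest to 0, and its 2 probes had opposite signs on every array after loess, but not with median centring. By limma with Benjamini-Hochberg adjustment over 22690 tested genes at a threshold of 0.05, 3.40% of genes were called, 1.58% higher and 1.82% lower in exposed seedlings, so 0 of 4 called is close to the background. At an unadjusted p below 0.05, 2 of the 4 genes, PAD3 and GGP1, were counted beside 24.8% of all tested genes. Each array compared bulk RNA of plants, in which fewer cells of a type and less RNA per cell cannot be told apart.

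The first nitrile-forming enzyme gene, CYP71A13, was read by 2 probes. Its brighter probe gave exposed signals of 95, 95, 85.5 and 1197 units on arrays 1, 2, 3 and 4, against control signals of 169, 144, 149.5 and 404 units. The local background under this spot was 54 to 57 units in the exposed channel and 50 to 56 units in the control channel, so on arrays 1 to 3 the exposed signal stood little above it. The exposed signal was below the control signal on 3 arrays and far above it on array 4, as the plot of scanner signals shows.

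**Figure D1:**
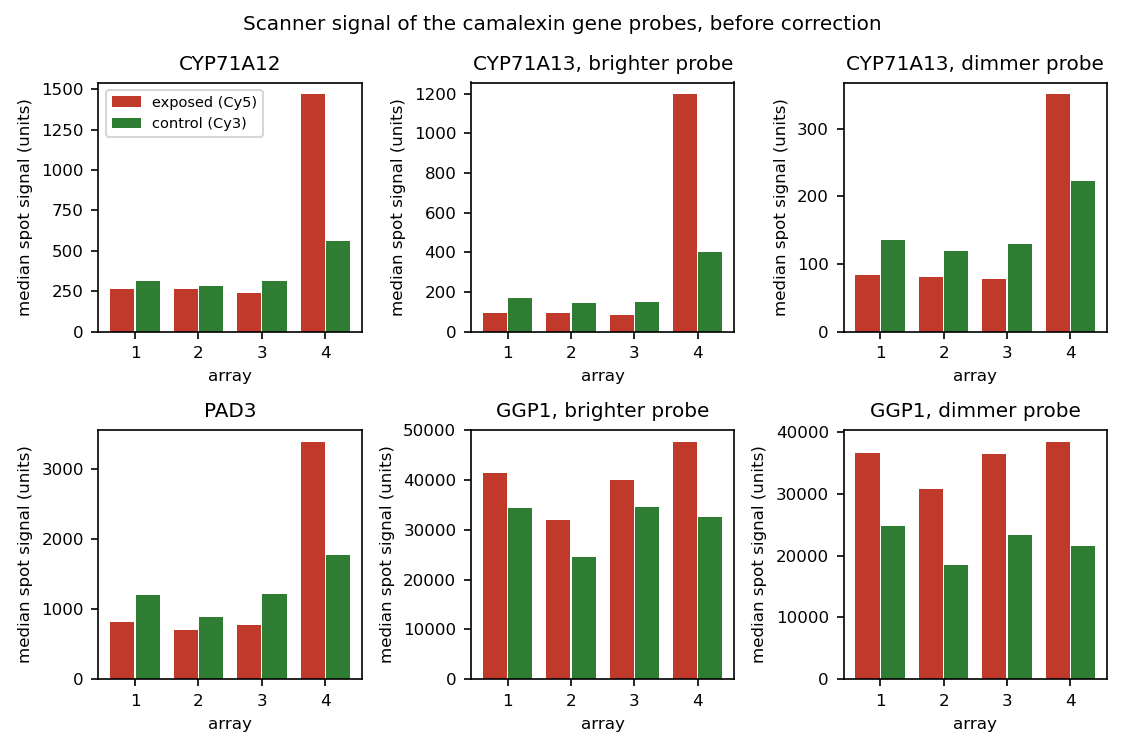
Median spot signal in scanner units (vertical axis, linear from 0, a separate scale in each panel) of the 6 probes of the 4 genes on arrays 1 to 4, with exposed RNA in red (Cy5) and control RNA in green (Cy3); single spots, no error bars. The PAD3, CYP71A12 and CYP71A13 bars are exposed below control on arrays 1 to 3 and exposed above control on array 4 (for PAD3 3386 against 1772.5 units), while both GGP1 probes have the exposed bar higher on every array before correction.

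After background correction and loess normalization within each array, the brighter CYP71A13 probe had log2 ratios of -0.70, -0.61, -0.74 and 0.40. The mean was -0.41 ± 0.19 (SE, n = 4), with a 95% interval of -0.88 to 0.048 and an adjusted p of 0.240 in limma. Without array 4 the same probe was at -0.68 ± 0.059 (SE, n = 3), with an adjusted p of 3.7e-07. Within slide 1 its mean was -0.66 and within slide 2 it was -0.17.

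The dimmer CYP71A13 probe gave exposed signals of 83, 81, 78 and 350.5 units, against control signals of 136, 119, 129 and 223 units. Its log2 ratios were -0.52, -0.58, -0.58 and -0.57, a spread of 0.028 (SD, n = 4), so array 4 did not stand apart in these ratios. It did with median centring, at -0.29 on array 4 and -0.72 to -0.57 on the others, and with plain subtraction, at -0.62 and at -1.27 to -1.01, lower in exposed seedlings on all 4 arrays each time. In a limma fit of all 31106 tested probes, an analysis added after the values were seen, it fell 1.48-fold (log2 ratio -0.56 ± 0.059 SE, n = 4, adjusted p = 0.0173). It was 1 of 6 camalexin probes called there, beside 2.92% of all tested probes, 1.28% higher and 1.64% lower in exposed seedlings. Without array 4 the same fit called 4 of the 6 lower, all but those of GGP1, and the dimmer GGP1 probe higher (0.24, adjusted p = 0.00521), beside 31.0% of all tested probes, 15.9% higher and 15.1% lower. The 2 probes differed by 0.031 to 0.18 on arrays 1 to 3 and by 0.97 on array 4. For 6495 genes with 2 or more tested probes, the median difference on array 4 was 0.31, and 92.5% of them differed by less than CYP71A13 did.

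The size of the CYP71A13 ratio depended on how the background was removed. Plain subtraction of the local background gave -0.83 (adjusted p = 0.139) and the scanner software's own log ratio gave -1.02 (adjusted p = 0.158) for the brighter probe. By the scanner software that probe was at -1.43, -1.28, -1.70 and 0.35 on arrays 1 to 4, and the dimmer probe was at -1.56, -1.38, -1.93 and -0.89. These are dim spots, and the constant added to both channels here draws their ratios towards 0.

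CYP71A12, the close copy of CYP71A13, was read by 1 probe. The exposed signals were 265, 261.5, 236 and 1469 units, against control signals of 311, 281.5, 313 and 564 units. The log2 ratios were -0.27, -0.31, -0.39 and 0.31, so that arrays 1 to 3 lay close together and array 4 had the other sign. The mean was -0.17 ± 0.12 (SE, n = 4), with a 95% interval of -0.46 to 0.13 and an adjusted p of 0.426 in limma, and without array 4 it was -0.33 with an adjusted p of 5.7e-04. The ratio lay above that of CYP71A13 by 0.29 to 0.43 on arrays 1 to 3 and below it by 0.091 on array 4. The 2 genes lie close together on chromosome 2, where the RefSeq gene order puts AT2G30760 after CYP71A12 and AT2G30766 before CYP71A13. Near-identical copies can share signal on an array, and whether the probes tell these 2 genes apart was not tested. AT2G30760 had log2 ratios of 0.019, -0.14, 0.18 and -0.14 (adjusted p = 0.899), without the pattern of its neighbours.

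GGP1, on chromosome 4, encodes the peptidase that removes glutamate from the glutathione conjugate. Its 2 probes read bright spots. The brighter gave exposed signals of 41521.5, 32085.7, 40133.4 and 47710.8 units, against control signals of 34354.2, 24621.7, 34638.3 and 32619.1 units. Loess shifted this probe by -0.72 to -0.38 on the log2 scale, to ratios of -0.11, -0.15, -0.16 and -0.17. The mean was -0.15 ± 0.058 (SE, n = 4), with a 95% interval of -0.29 to -0.0099 and an adjusted p of 0.179 in limma.

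The dimmer GGP1 probe gave exposed signals of 36617.3, 30894.4, 36457.7 and 38471.3 units, against control signals of 24815.5, 18549.5, 23430.5 and 21551.4 units. Its log2 ratios were 0.20, 0.22, 0.29 and 0.15, with a mean of 0.22 ± 0.062 (SE, n = 4) and an adjusted p of 0.101 among probes. After loess the probes thus disagreed in sign on all 4 arrays, which held for 228 of 6495 genes with 2 or more tested probes, or 3.51%. With the mean of both probes GGP1 was at 0.034 (adjusted p = 0.713), and with median centring in place of loess the brighter probe was at 0.041, so no direction can be given for this gene. On both probes array 4 lay near the other arrays after loess, but with median centring the brighter one was at -0.40 on array 4 and at 0.14 to 0.24 on arrays 1 to 3. The dimmer one was then at -0.11 on array 4 and at 0.47 to 0.60 on arrays 1 to 3. With median centring the 2 probes thus had the same sign on each array.

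PAD3, on chromosome 3, encodes the last enzyme of the pathway and was read by 1 probe. The exposed signals were 817, 701, 779 and 3386 units, against control signals of 1196, 886, 1221 and 1772.5 units. The spot was well above background in both channels on all 4 arrays, with a local background of 49 to 63 units. The log2 ratios were -0.65, -0.62, -0.71 and 0.21, lower in exposed seedlings on 3 of 4 arrays, with a sign on array 4 that turned under median centring (-0.014). The mean was -0.44 ± 0.16 (SE, n = 4), with a 95% interval of -0.82 to -0.065 and an adjusted p of 0.152 in limma. Without array 4 it was -0.66 ± 0.058 (SE, n = 3, adjusted p = 4.9e-07), and the slide means were -0.63 and -0.25 for slides 1 and 2. Unlike CYP71A13, PAD3 gave nearly the same values on arrays 1 to 3 by the scanner software, at -0.65, -0.60, -0.71 and 0.046.

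**Figure D2:**
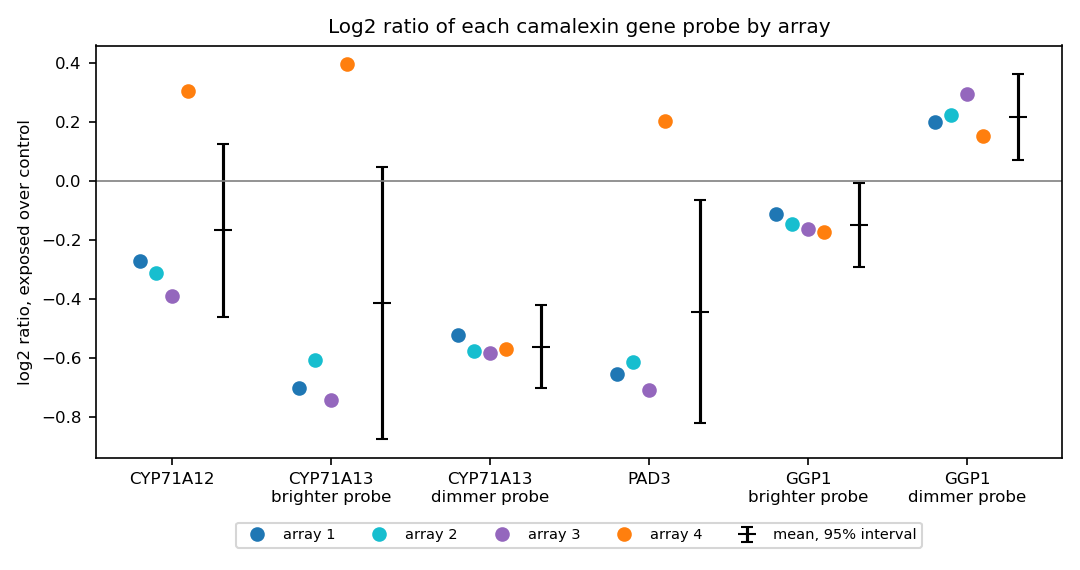
Log2 ratio of exposed over control (vertical axis) for each of the 6 probes, with a point for each array and, at the right of each group, the mean of 4 arrays with its 95% interval from limma (black). Array 4 (orange) lies above 0 for CYP71A12, PAD3 and the brighter CYP71A13 probe and with the other arrays for the dimmer CYP71A13 probe at -0.57 and for both GGP1 probes.

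The fit without array 4 called 3 of the 4 genes lower, all but GGP1 (-0.14, adjusted p = 0.0721), but it also called 31.1% of all tested genes, 16.8% higher and 14.3% lower. Without array 1, 2 or 3 limma called 0 genes in all, with 3580, 3873 and 3494 at an unadjusted p below 0.05. The pattern of CYP71A12, CYP71A13 and PAD3, below 0 on arrays 1 to 3 and above 0 on array 4, was shared by 7.21% of 22623 genes measured on all arrays. GGP1 was the 1 gene of the 4 below 0 on all arrays, as were 20.7% of genes. On arrays 1 to 3 alone all 4 were below 0, as were 27.9% of genes. An exact sign-flip permutation test over 4 arrays cannot give a two-sided p below 0.125, and gave 0.375 for CYP71A12, 0.25 for CYP71A13 and PAD3 and 0.125 for GGP1.

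Within each array the ratios can be placed among those of all tested probes. PAD3 lay at percentile 0.212, 0.222 and 0.238 on arrays 1, 2 and 3 and at percentile 78.2 on array 4. The brighter CYP71A13 probe lay at percentile 0.170, 0.232 and 0.199 and at 87.8, and CYP71A12 at 6.65, 3.37 and 3.70 and at 84.0. Both PAD3 and the brighter CYP71A13 probe were therefore among the lowest ratios of arrays 1 to 3 and were not on array 4. The dimmer CYP71A13 probe lay at percentile 0.531, 0.305 and 0.601 on arrays 1, 2 and 3 and at 8.17 on array 4. The ratios of tested genes also spread more on array 4, with an SD of 0.409 against 0.183 to 0.226 on the other arrays.

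**Figure D3:**
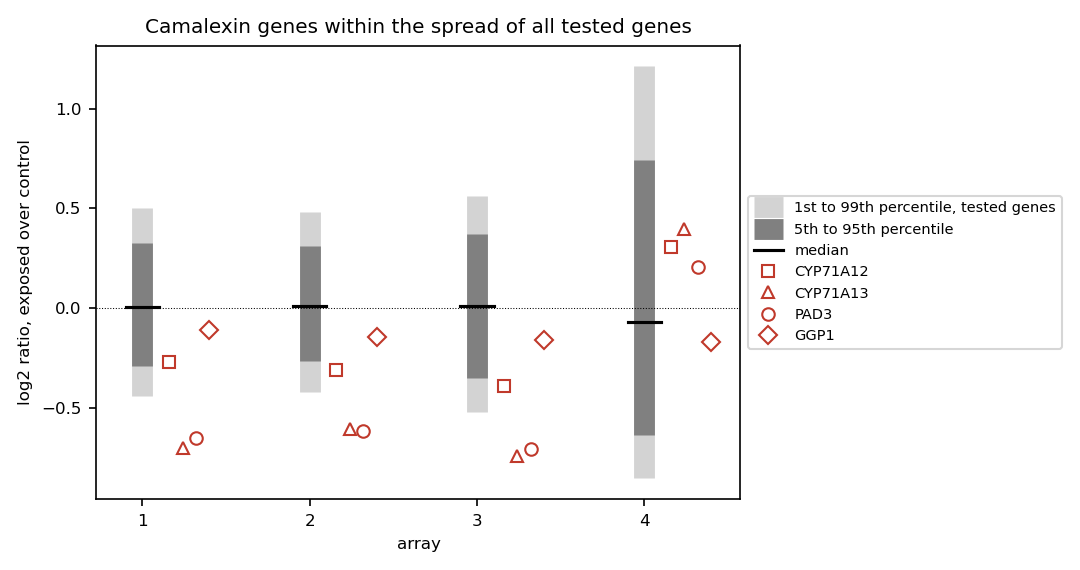
Log2 ratio of exposed over control (vertical axis) of the 4 genes, each by its only or brighter probe (red symbols), beside the spread of all tested genes on each array (light bar, 1st to 99th percentile; dark bar, 5th to 95th; black line, median). PAD3 and CYP71A13 lie below the light bar on arrays 1 to 3 and within the dark bar on array 4.

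Normalization moved the 4 genes by unlike amounts on array 4. Loess shifted the log2 ratio by -1.11 for CYP71A12, by -1.22 for the brighter and -1.23 for the dimmer CYP71A13 probe and by -0.73 for PAD3 on array 4, against shifts between -0.27 and -0.031 for PAD3, CYP71A12 and the brighter CYP71A13 probe on arrays 1 to 3. Before this step the median log2 ratio of all gene spots was 0.95 on array 4 and 0.071 to 0.14 on the others. With median centring, array 4 gave 0.47 for CYP71A12, 0.67 for the brighter CYP71A13 probe and -0.014 for PAD3. The sign of PAD3 on array 4 thus turned with the normalization, and that of CYP71A12 and the brighter CYP71A13 probe did not. The share of exposure, of dye and of brightness in these shifts cannot be told apart on 1 array.

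**Figure D4:**
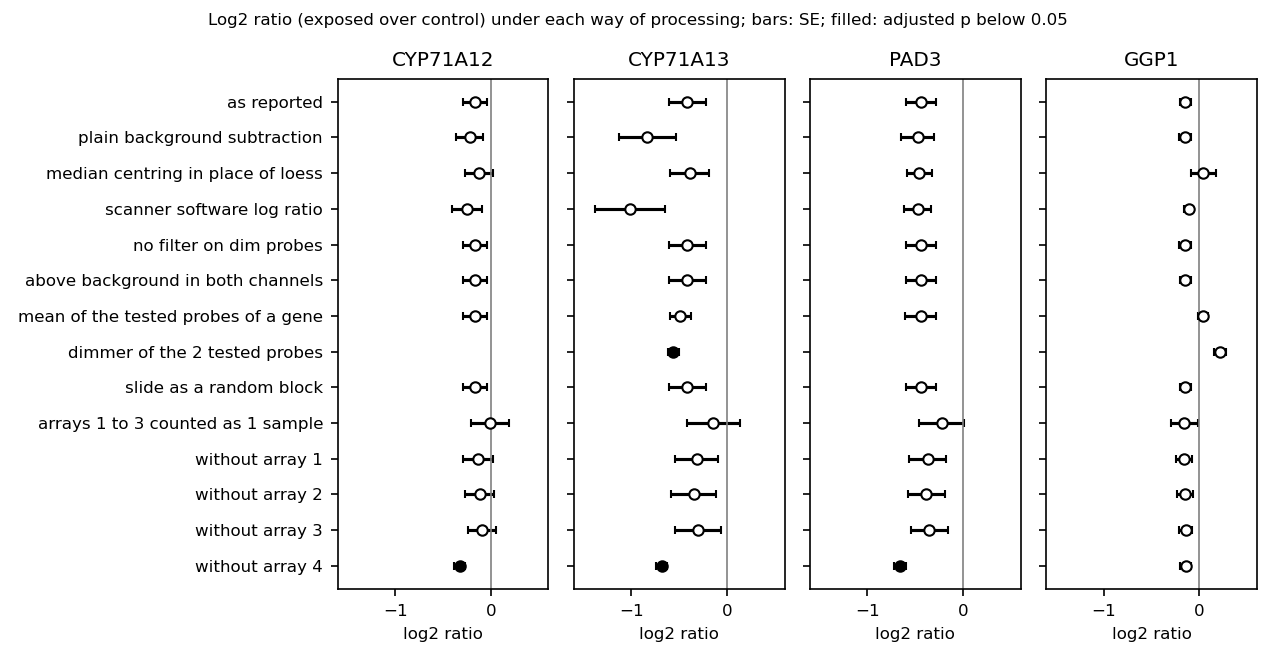
Log2 ratio of exposed over control (horizontal axis, mean ± SE) of each gene under each way of processing (rows); filled points have an adjusted p below 0.05 in limma. CYP71A12, CYP71A13 and PAD3 stay below 0 in every row and are filled without array 4 (at -0.33, -0.68 and -0.66), CYP71A13 also for its dimmer probe, and GGP1 turns above 0 in 3 rows.

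By the brighter CYP71A13 probe after loess, CYP71A13 and PAD3 were the nearest genes to each other. Over the log2 ratios of 4 arrays, the Euclidean distance between them was 0.20, the smallest for either gene among 22622 other genes. Next for CYP71A13 came SAG12, a senescence-associated protease gene, at a distance of 0.25, and AT1G26390 at 0.28, and next for PAD3 came AT4G08580 and AT4G13790, both at 0.27. CYP71A12 was not close to CYP71A13 (distance 0.64), since its ratios were smaller, and its nearest genes were AT4G19070, AT4G15810 and AT4G24700 at 0.056 to 0.081. Those of GGP1 were AT1G34320, AT2G34510 and AT3G11745 at 0.023 to 0.034. With 4 points that share their arrays, likeness here is a description. It also holds for 1 probe and 1 normalization only. On array 4 after loess the dimmer CYP71A13 probe was at -0.57, away from PAD3 at 0.21. With median centring the brighter probe was at 0.67 there and PAD3 at -0.014.

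Around these enzymes, 64 genes were listed by role and 56 were tested. Of these, 1 rose, 1 fell and 54 were not called, beside 3.40% of all tested genes, and their median log2 ratio was 0.041, against -0.0046 over all tested genes. Without array 4, 10 were called higher and 5 lower, beside the 16.8% and 14.3% of all tested genes given above. The gene that fell was ABCG40, also called PDR12, which encodes a plasma membrane transporter that imports abscisic acid and has been tied to camalexin secretion. Its log2 ratios were -1.50, -1.57, -1.79 and -2.14 (mean -1.75 ± 0.11 SE, n = 4, adjusted p = 0.0095), lower in exposed seedlings on all 4 arrays. Of the other exporters, PEN3, whose product sits at sites of fungal entry, was at -0.11 and ABCG34 at 0.12, both uncalled with all 4 arrays. Without array 4 ABCG34 was called higher (0.15, adjusted p = 0.0493). The gene that rose was CYP71B23, a P450 of the subfamily of PAD3, with log2 ratios of 0.51, 0.58, 0.68 and 0.63 (mean 0.60 ± 0.062 SE, n = 4, adjusted p = 0.0162). It moved the other way from PAD3 on arrays 1 to 3. The calls of ABCG40 and CYP71B23 were lost when array 1, 2 or 3 was left out or when arrays 1 to 3 were counted as 1 sample.

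None of 12 regulators was called with all 4 arrays, and their median was 0.053. Without array 4, 1 of them was called, MYB51, higher in exposed seedlings (0.20, adjusted p = 0.0224), beside 16.8% of all tested genes. Its log2 ratios were 0.21, 0.078, 0.30 and -0.25. The transcription factor WRKY33, which binds the PAD3 promoter and activates it, had log2 ratios of 0.24, 0.24, 0.022 and -0.17, with a mean of 0.083 (adjusted p = 0.583). NAC042 (ANAC042), another activator of camalexin genes, was at -0.11, -0.11, -0.076 and 0.90, with a mean of 0.15 (adjusted p = 0.626). WRKY33, NAC042 and MYB51 were chosen for naming after their values were seen. Taken from the scanner software, the means of WRKY33 (-0.042) and NAC042 (-0.055) turned negative, so neither of these has a settled direction. By rank the lowest p belonged to the calcium-dependent kinase CPK6 (0.29), the mitogen-activated kinase MPK3 (0.10) and MYB34 (-0.068), a regulator of indole glucosinolates. CPK6 rested on array 4, with log2 ratios of -0.0074, 0.046, 0.23 and 0.89 and a mean of 0.090 without that array, and by the scanner software it was at 0.12.

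By its brightest tested probe, no gene of the upstream steps was called with all 4 arrays after loess. Of 10 tested genes of the tryptophan branch, 0 were called over a range of -0.21 to 0.17, and those with the lowest p were the phosphoribosyltransferase gene TRP1 (-0.17), the tryptophan synthase gene TSA1 (0.16) and the anthranilate synthase gene ASA2 (-0.21). The oxime-forming CYP79B3 was at 0.14 (95% interval -0.024 to 0.31), and CYP79B2 was at -0.022 (95% interval -0.17 to 0.13), with a sign that turned under median centring (0.10). Among 7 tested genes of glutathione supply and conjugation, the glutathione transferase gene GSTF6, tied to the conjugation of the nitrile, was at 0.31 (adjusted p = 0.0683), and was called with the mean of its probes (0.31, adjusted p = 0.0446). In the same list GSH1, also known as PAD2, which starts glutathione synthesis, was at -0.21 (adjusted p = 0.124), with a second probe at -0.029 and -0.047 for the first with median centring. The transpeptidase gene GGT1 was at -0.19, with a second probe at -0.048, -0.12 with the mean of probes and -0.090 by the scanner software. Without array 4 both were called (GSH1 -0.21, adjusted p = 0.0177, and GGT1 -0.17, adjusted p = 0.0430), as was GSTF6 (0.29, adjusted p = 0.00259). So were TSA1 (0.20, adjusted p = 0.0203) and CYP79B3 (0.18, adjusted p = 0.0371), both higher in exposed seedlings. The P450 reductase genes ATR1 and ATR2, which feed electrons to these enzymes, were at -0.054 and -0.043.

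Genes that draw on the same intermediates were not called with all 4 arrays after loess, but some were under other settings. Of 3 tested genes of other indole-3-acetonitrile routes, AT1G26380 had log2 ratios of -0.099, -0.26, -0.40 and -0.47 (mean -0.31, adjusted p = 0.0859), and was called by the scanner software (-0.47, adjusted p = 0.0389) and without array 4 (-0.25, adjusted p = 0.00716). In the same list CYP71B6 was at 0.12 and the nitrilase gene NIT2 at -0.094. In the indole glucosinolate branch 0 of 5 were called. CYP81F2, which modifies indole glucosinolates in defence, had log2 ratios of 0.48, 0.50, 0.42 and -0.34 (mean 0.27, adjusted p = 0.308), and was called without array 4 (0.47, adjusted p = 2.0e-05). It was higher in exposed seedlings on arrays 1 to 3, where PAD3 was lower. On array 4 after loess CYP81F2 was lower and PAD3 higher, but with median centring PAD3 was at -0.014 there. UGT74B1 was at 0.17 and CYP83B1, which competes with CYP71A13 for the oxime, at -0.087. Among close relatives, CYP71A16 was at 0.32 (adjusted p = 0.0674) and GGP3, a second gamma-glutamyl peptidase gene, at -0.25 (adjusted p = 0.105). Without array 4 both were called (CYP71A16 0.28, adjusted p = 0.00306, and GGP3 -0.18, adjusted p = 0.0227). In that fit 4 of 12 tested relatives were called higher and 1 lower, beside 16.8% and 14.3% of all tested genes.

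**Figure D5:**
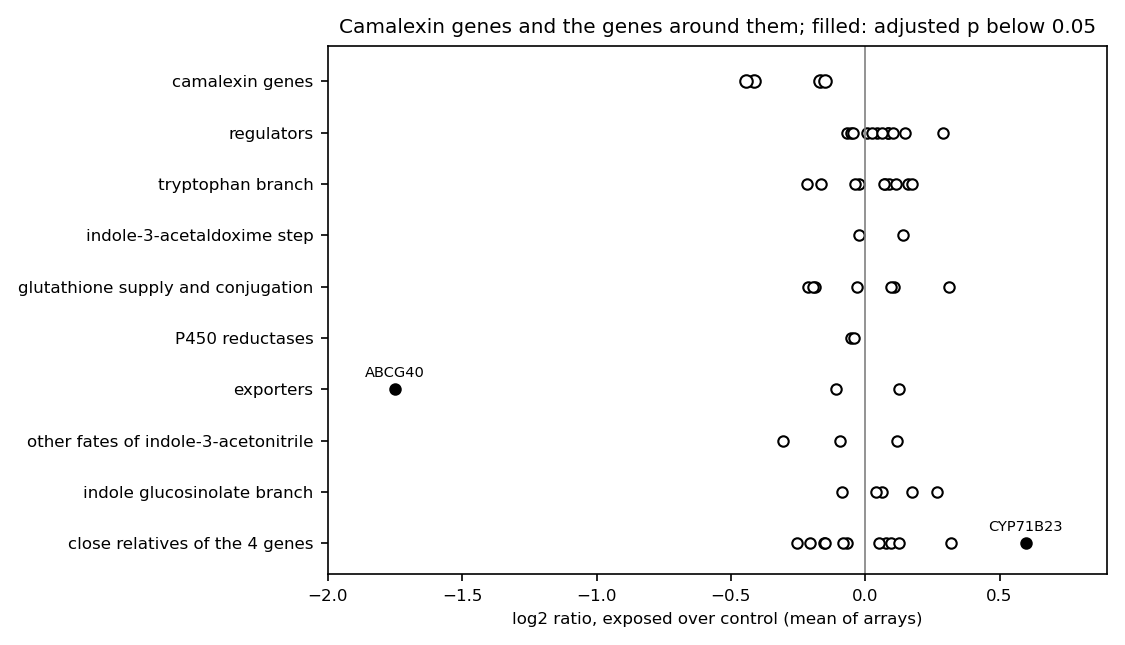
Mean log2 ratio of exposed over control (horizontal axis) of the 4 camalexin genes (top row) and of the 56 tested genes around them by role (rows), 1 point a gene, filled where the adjusted p was below 0.05 in limma. The filled points are ABCG40 at -1.75 and CYP71B23 at 0.60, and the 4 camalexin genes lie between -0.44 and -0.15 by their only or brighter probe, where GGP1 is above 0 with its dimmer probe (0.22), the mean of probes or median centring.

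Markers of root and of green tissue were higher in exposed seedlings by their brightest probes, beside 1.58% of all tested genes called higher, but most of these calls depended on the probe. Of 4 root markers 2 rose, PYK10 (0.61) and PRP3 (0.44). Summed net signals of all 4 before loess were 254408 to 337579 units exposed and 111154 to 133660 units control. Of 3 green tissue markers (CAB1, RBCS1A and PSBO1) 3 rose, with means of 0.49 to 0.50. Summed net signals of these 3 before loess were 932514 to 1071040 units exposed and 403535 to 445534 units control. All 5 of these calls were lost without array 1, 2 or 3. With the mean of probes the calls of PYK10 (0.26, adjusted p = 0.0621), CAB1 (0.12, adjusted p = 0.227), RBCS1A (0.25, adjusted p = 0.0872) and PSBO1 (0.14, adjusted p = 0.241) were lost. By the scanner software RBCS1A (0.27, adjusted p = 0.0787) and PSBO1 (0.26, adjusted p = 0.1003) lost theirs, as did PSBO1 with no filter (adjusted p = 0.0603) and PRP3 with median centring (0.45, adjusted p = 0.115). PSBO1 was fitted on 3 arrays because its spot on array 1 was an outlier, but that spot is in the summed signal of array 1. The sums still hold any difference between the channels that loess takes out. The stomatal genes MUTE (0.24) and TMM (-0.016) were not called, and the embryo gene LEC1 was well above background in the exposed channel on 4 arrays and in the control channel on 2. The part of these markers in the ratios above was not tested.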

How the data were processed

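Scanner files of 4 two-colour Agilent arrays were used. They hold spot intensity on a linear scale, with local background and quality marks, made with Agilent Feature Extraction, version 11.5.1.1 per the file headers and 8.5.1.1 per the submitters' processing notes. The software's log10 ratio of Cy5 over Cy3, background and dye corrected per the file headers, was turned into log2 as an alternative. The deposited log2 values of the series matrix equalled log2 of processed Cy5 over Cy3 signal for array 1 at 45220 spots, within 0.001. For arrays 2, 3 and 4 they equalled log2 of Cy3 signal error over processed Cy5 signal at 45219, 45220 and 45220 spots. Column medians were -0.042, -3.17, -3.17 and -3.19. How the columns came to differ is unknown, and the matrix entered no comparison.

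The analysis used limma 3.58.1 in R 4.3.3 and started from median signals and median local background, by normexp (offset 50) and loess within arrays, with control and outlier spots at weight 0 and then left out. A probe was tested when well above background in 1 channel on at least 3 of 4 arrays, and a gene was its brightest tested probe. Ratios were tested against 0 with lmFit and eBayes, two-sided, at a threshold of 0.05 on p-values adjusted by Benjamini-Hochberg across every gene tested. The fit was tested on simulated data whose 4 arrays varied independently, with the spread of each gene taken from arrays 1 to 3. No simulated array was made to stand apart as array 4 did, so that test does not cover this feature. The precision is limited by the number of arrays. The labels give 1 group of 4 arrays, and no sample was left out.

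The 4 genes and the lists of genes around them were chosen with earlier results of these data known. From each list every called gene and the 3 genes of lowest p were named, and for each of the 4 genes the 3 nearest by Euclidean distance. WRKY33, NAC042 and MYB51 were added after their values were seen. Names come from a RefSeq gene table of assembly TAIR10.1. The file headers name another annotation, so no coordinates are given. Probe sequences were not used here. Alternatives were plain background subtraction, median centring, the scanner's log ratio, no filter, a stricter filter, the mean of probes, the dimmer probe, slide as a random block, arrays 1 to 3 as 1 sample, and leaving out each array.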

Additional observations from a re-analysis of the deposited data

Results flagged for a closer look

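A value was listed here when 1 of the 4 arrays lay so far from the other 3 that Dixon's ratio of gap to range passed its 95% critical value. Of 49 sets of 4 values 16 did so, 14 of them because of array 4. Chance alone gives about 1 in 20, and the sets share their arrays, so the number is not a count of independent events.

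Array 4 stood apart in the log2 ratio of CYP71A12 (0.31 on array 4, -0.39 to -0.27 on the others), of the brighter CYP71A13 probe (0.40, with -0.74 to -0.61 on the others) and of PAD3 (0.21, with -0.71 to -0.62 on the others). Its exposed signals stood apart for CYP71A12 (1469 units, with 236 to 265 on the others), for the brighter CYP71A13 probe (1197, with 85.5 to 95), for the dimmer CYP71A13 probe (350.5, with 78 to 83) and for PAD3 (3386, with 701 to 817). Its control signals stood apart for CYP71A12 (564 units, with 281.5 to 313), for the brighter CYP71A13 probe (404, with 144 to 169) and for the dimmer one (223, with 119 to 136). GGP1 gave no such value on either probe.

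Among the genes around the pathway, array 4 stood apart for NAC042 (log2 ratio 0.90, with -0.11 to -0.076 on the others), CYP81F2 (-0.34, with 0.42 to 0.50), ATR2 (-0.20, with -0.0023 to 0.018) and ABCG34 (0.035, with 0.15 to 0.17). Array 3 stood apart for ATR1 (-0.18, with -0.021 to -0.0075) and array 1 for PEN3 (-0.13, with -0.10 to -0.096), both by small amounts.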

How the results depend on the processing

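CYP71A12, CYP71A13 and PAD3 kept a negative mean under every alternative run, between -0.33 and -0.010, between -1.02 and -0.14 and between -0.66 and -0.23, and were called only without array 4, except the dimmer CYP71A13 probe (-0.56, adjusted p = 0.0159 in its place among genes). The lowest of each range but that of CYP71A13 is without array 4, and the highest is with arrays 1 to 3 counted as 1 sample. Leaving out 1 array at a time gave -0.33 to -0.093 for CYP71A12, -0.68 to -0.30 for CYP71A13, -0.66 to -0.35 for PAD3 and -0.16 to -0.14 for GGP1, with 0 to 3 camalexin genes, 0 to 15 genes around them and 0 to 7054 of all tested genes called. With arrays 1 to 3 counted as 1 sample, 0 genes around the pathway and 0 genes in all were called (1317 at an unadjusted p below 0.05). GGP1 turned to 0.041 with median centring, to 0.034 with the mean of its probes and to 0.22 with its dimmer probe. All tested genes called numbered 216 (166 higher, 50 lower) with median centring, 292 with no filter and 772 (358 higher, 414 lower) as reported, and the split was 657 higher and 488 lower with plain subtraction. Genes around the pathway called numbered 4 by the scanner's log ratio, beside 4.89% of all tested genes, and 2 as reported, beside 3.40%. Small values changed sign for ATR1 (0.023) by the scanner's log ratio, ATR2 (0.022 with the mean of probes, and -0.064 to 0.0084 leaving out 1 array), CYP79B2 (0.10 with median centring, 6.7e-04 by the scanner's log ratio, and -0.051 to 7.7e-04 leaving out 1 array), NAC042 (-0.055 by the scanner's log ratio, and -0.098 to 0.24 leaving out 1 array) and WRKY33 (-0.042 by the scanner's log ratio, -0.0011 with arrays 1 to 3 as 1 sample). The low end for NAC042 and the high ends for ATR2 and CYP79B2 are without array 4. The cause was not tested. Slide as a random block changed no call of the 4 genes. Each ratio compares both conditions within 1 array, so the test against 0 is already paired by array.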

Other observations

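Of all tested genes, 41 had a mean log2 ratio on arrays 1 to 3 at or below that of PAD3. There PAD3 was the less negative of PAD3 and CYP71A13 (brighter probe). Of these 41, 4 (9.76%) were above 0 on array 4. Among the 6321 genes below 0 on arrays 1 to 3, the number was 1632, a larger share. The cut was set at the value of PAD3, so PAD3 and CYP71A13 are among the 41 by construction. A place among the 4 also needed a ratio above 0 on array 4, which PAD3 had after loess but not with median centring (-0.014). Besides PAD3 and CYP71A13 the 4 were ELI3-2, a gene named for its induction by elicitors, and AT1G26390, named here by its locus alone. ELI3-2 had log2 ratios of -1.44, -1.38, -1.38 and 0.38 (mean -0.95, adjusted p = 0.127 in limma), and AT1G26390 had -0.88, -0.79, -0.84 and 0.33 (mean -0.54, adjusted p = 0.171). They were singled out after their values were seen, and no test was made of this set.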
